A study of Mus musculus with 24 samples.

Results

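Interferon-stimulated genes are the genes that cells switch on when an interferon binds its receptor. All samples were used, and earlier results of these data were known when the genes were chosen. The 41 genes described here were chosen by symbol, from general knowledge of the interferon response. Of these, 39 had a row in the table of 14912 genes, and all 39 passed the filter on low values (a mean of at least 0.1 FPKM), beside 14026 genes in the whole table. Mx1 and Mx2 were not analysed here. RNA of the left ventricle was measured in a hypertensive-LVH group (left ventricular hypertrophy) of 12 mice infused with ANG II (angiotensin II, 1500 ng/kg/min) for 7 days, and in a control group of 12 mice infused with saline for the same time. All were male wild-type C57BL/6J mice with a subcutaneous osmotic mini-pump, their hearts were flushed with saline, and their age is not given in the sources used here. FPKM is the number of sequenced fragments of a gene per length of its transcript and per mapped fragment of the sample, so that levels can be set side by side between genes.

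Type I and type III interferons act through a complex that holds Stat2 and Irf9 and binds the interferon-stimulated response element, while interferon gamma acts through the gamma-activated sequence. Cells make type I interferon when sensors of viral or misplaced nucleic acid are engaged, and many of the genes that are then induced code for antiviral proteins, for more sensor, or for brakes on the response. In the heart, resident macrophages, endothelial cells, fibroblasts and cardiomyocytes can all respond to interferon.

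Most genes had been shifted and scaled within 4 sets of samples. The first set is samples 1 to 3 of either group, followed by 4 to 6, 7 to 9 and 10 to 12. For 278 of the 14912 genes all values were whole hundredths, and these genes were left out of the search for ties. Exact ties between samples showed the sets, with 215 to 541 genes tied in each pair within a set and 0 genes across sets. Over all genes a sample summed to at least 460715 and at most 515185 with ANG II, and to between 482319 and 567727 in controls. The number of reads is unknown. The libraries ANG II 6, ANG II 12 and control 3 were each the highest of 24 for over 10% of all genes, and counts are also given without them. Heart muscle RNA was high in all samples. The 10 cardiomyocyte markers (Myh6, Tnnt2, Myl2 and others) summed to between 43136 and 64326 FPKM in the hypertensive-LVH group. In the control group they summed to between 57734 and 78794 FPKM. This sum does not tell ventricle from atrium. The 3 atrial myocyte markers in the table summed to between 0 and 2303 FPKM with ANG II and between 0 and 3153 FPKM in controls. Values below 0 had been set to 0, so a sum of 0 need not mean that their RNA was absent. Whether atrial tissue entered some samples was not tested.

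The letters of the response element were common around the starts of these genes. The RefSeq promoter table for GRCm38.p6, with 250 bases before to 50 bases after each start, held an entry for 30 of the 39 genes. The core of the element (GAAA, any 2 bases, then GAAA) was searched on both strands, where it may overlap itself, and was found for 20 of the 30 genes (66.7%), against 3.99% of all 27025 genes with an entry. On the strand of the gene alone it was found for 9 of the 30. For Ddx58, Eif2ak2, Ifih1 and Ifitm3 the matches lay only after the start. The gamma-activated core TTCNNNGAA, which reads the same on both strands, was found for 9 of the 30 genes, against 9.55% of all genes. These matches are a description of the windows and not of binding. The stretches below are shown because they hold the response element of genes whose RNA is described further on, including 7 that rose with ANG II. Capitals mark this core or its reverse complement, with overlapping matches run together, and each is read along the strand of its gene.
Isg15 (chr4:156200860-156200911, minus strand): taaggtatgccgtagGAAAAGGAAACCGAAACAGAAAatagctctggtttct
Ifit1 (chr19:34640770-34640828, plus strand): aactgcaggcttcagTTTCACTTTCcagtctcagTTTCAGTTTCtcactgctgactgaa
Ifit3 (chr19:34583358-34583431, plus strand): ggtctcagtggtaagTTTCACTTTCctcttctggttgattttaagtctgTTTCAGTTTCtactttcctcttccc
Ifit3b (chr19:34607754-34607827, plus strand): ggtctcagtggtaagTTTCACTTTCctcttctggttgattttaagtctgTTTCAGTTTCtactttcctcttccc
Oas3 (chr5:120777710-120777749, minus strand): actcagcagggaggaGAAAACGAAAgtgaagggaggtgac
Rsad2 (chr12:26456548-26456587, minus strand): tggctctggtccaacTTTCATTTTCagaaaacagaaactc
Irgm1 (chr11:48871421-48871465, minus strand): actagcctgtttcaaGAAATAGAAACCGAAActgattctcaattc
Igtp (chr11:58199507-58199546, plus strand): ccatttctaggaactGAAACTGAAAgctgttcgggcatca
Gbp7 (chr3:142530268-142530307, plus strand): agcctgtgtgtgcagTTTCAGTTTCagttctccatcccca
Isg15 had 3 overlapping matches in 1 run, Ifit1 had 2 with a short gap, and the 74 bases of Ifit3 and Ifit3b were the same base for base.

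The first comparison asked which of the genes differed between mice infused with ANG II and mice infused with saline. Their RNA was higher on average in the hypertensive-LVH group for 39 of 39 genes, by a log2 fold change of 0.13 to 0.96, where 63.8% of all genes tested had a positive difference. By limma with Benjamini-Hochberg adjustment over all 14026 genes, 14 of the 39 (35.9%) rose at an adjusted p under 0.05, against 20.9% of all genes tested. None fell by limma (0 at an adjusted and 0 at an unadjusted p under 0.05, and 0 by a Wilcoxon rank-sum test), against 12.6% of all genes. With a log2 fold change over 0.5 as well, which is the definition of a DEG used here, 8 of the 39 (20.5%) were higher against 4.52% of all genes, and 0 were lower against 1.40%. The median log2 fold change was 0.32 over the 39 genes and 0.05 over all genes tested. Fold changes are on the scale of log2(FPKM + 1), which understates the change of genes with low FPKM. In whole tissue, more cells of a type and more RNA per cell cannot be told apart.

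**Figure D1:**
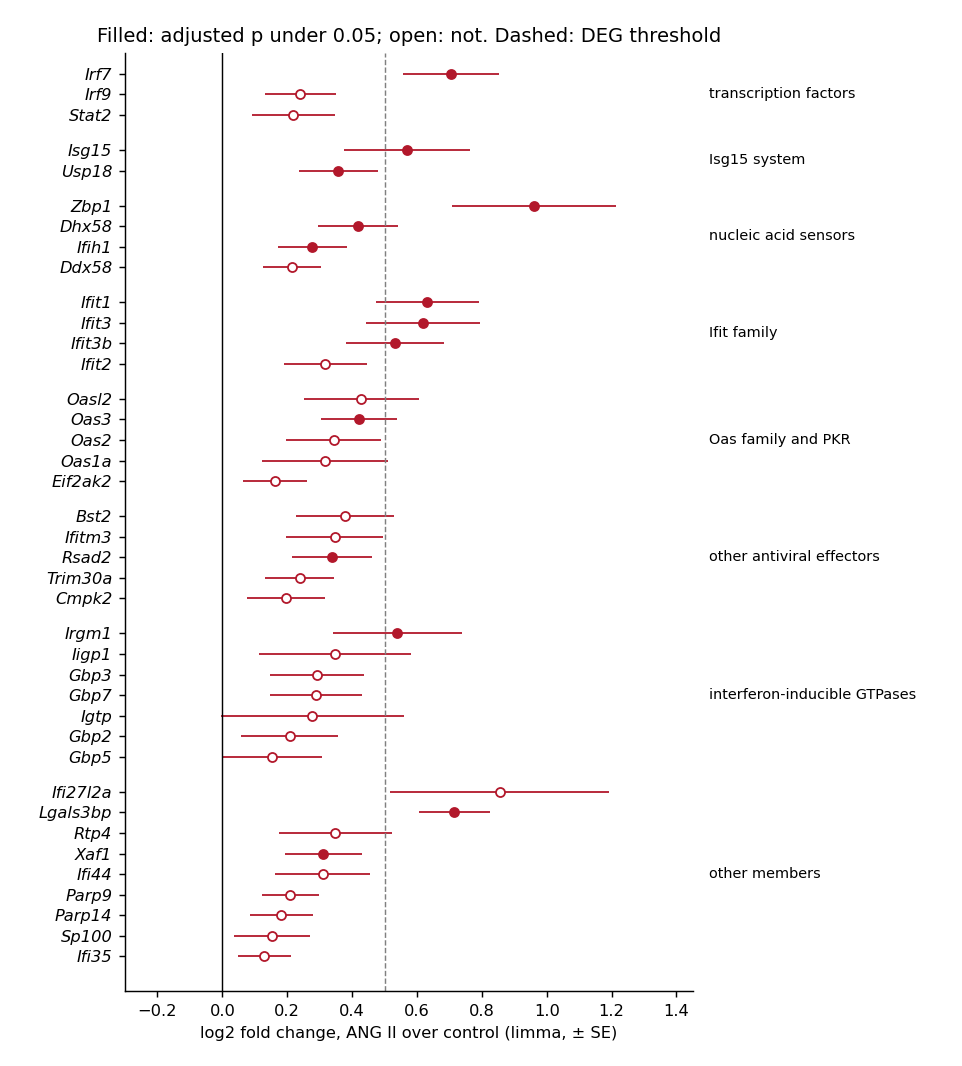
The log2 fold change of each of the 39 genes (x axis, ANG II over control on log2(FPKM + 1), with the standard error from limma as bars), grouped by role. Filled points mark the 14 genes at an adjusted p under 0.05, the dashed line marks the DEG threshold of 0.5, and all points lie to the right of 0.

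These counts depended on which mice and sets entered. Without samples 4 to 6, 3 of the 39 rose (Irf7, Ifit1 and Lgals3bp) against 8.36% of all genes, and without samples 1 to 3 there were 9 against 19.2% of all genes, with the calls of Usp18, Ifih1, Ifit3b, Rsad2, Irgm1 and Xaf1 lost. A fit with the set as a term left 10, against 17.0% of all genes, and an exact permutation test within the sets left 9, against 16.4%. Without the libraries ANG II 6, ANG II 12 and control 3 the count was 14, against 17.3% of all genes, but these were not the same genes. The calls of Ifih1, Rsad2, Irgm1 and Xaf1 were lost there, and Oas1a, Bst2, Ifitm3 and Ifi27l2a passed instead. Leaving out 1 mouse gave 9 to 23, with 9 without control 6, against 17.7% of all genes, and 23 without ANG II 9, against 23.1%. Of the 14 genes, 9 passed in each of the 24 fits without 1 mouse, and Isg15, Ifih1, Rsad2, Irgm1 and Xaf1 did not.

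Among the 3 transcription factors, Irf7 rose, and the partners of the Stat complex did not pass the test. Irf7, the factor that amplifies type I interferon production (chr7:141262706-141266481, GRCm38), had a lowest, median and highest FPKM of 15.7, 21.4 and 56.1 in the hypertensive-LVH group and of 11.8, 14.5 and 18.8 in the control group. The ANG II values were above the control median in 12 of 12 mice and above the highest control in 9, with ANG II 8 highest. The log2 fold change was 0.70 ± 0.15 (SE, n = 12 per group, limma adjusted p = 0.000921). Stat2, the part of the complex that activates transcription, was at 7.47, 12.1 and 20.3 FPKM with ANG II and at 7.63, 10.5 and 12.7 FPKM in controls. In 5 of 12 ANG II mice Stat2 was above every control, while the lowest of its 24 values was that of ANG II 9. Its log2 fold change was 0.22 ± 0.13 (limma adjusted p = 0.187). Irf9, the part of the complex that binds DNA, had a log2 fold change of 0.24 ± 0.11 (limma adjusted p = 0.0939).

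Both genes of the Isg15 system rose. Isg15, a small protein that is joined to other proteins much like ubiquitin, was at 4.29, 11.4 and 26.0 FPKM (lowest, median, highest) with ANG II and at 3.68, 6.94 and 12.4 FPKM in controls. All but the 4 highest ANG II mice lay within the range of the controls. The log2 fold change was 0.57 ± 0.19 (limma adjusted p = 0.0269), and the adjusted p was 0.0508 without control 6 and 0.0569 by permutation within the sets. Usp18, which removes Isg15 from proteins and also holds back type I interferon signaling at the receptor, was at 2.83, 4.40 and 8.59 FPKM with ANG II and at 2.60, 3.23 and 4.33 FPKM in controls. In 6 of 12 ANG II mice it lay above every control, and its log2 fold change was 0.36 ± 0.12 (limma adjusted p = 0.0271). This call was lost by the Wilcoxon rank-sum test (adjusted p = 0.0853) and with quantile normalization (limma adjusted p = 0.0904).

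Of the 4 nucleic acid sensors, 3 rose. Zbp1, a sensor of Z-form nucleic acid that can start inflammatory cell death, had the largest log2 fold change of the 39 genes, 0.96 ± 0.25 (limma adjusted p = 0.00541). It was at 2.50, 3.76 and 11.9 FPKM with ANG II, where ANG II 8 and ANG II 6 stood above the rest, and at 0.167, 2.18 and 3.64 FPKM in controls. The control values of Zbp1 came in 2 bands, 0.167 to 1.41 FPKM in the 6 controls of samples 4 to 9 and 2.95 to 3.64 FPKM in the other 6, and within the sets the log2 difference was 2.33 in samples 4 to 6, 1.34 in 7 to 9, 0.17 in 1 to 3 and 0.0036 in 10 to 12. Dhx58, which tunes the Rig-I pathway, had a log2 fold change of 0.42 ± 0.12 (limma adjusted p = 0.0118), and Ifih1, which codes for the sensor of long double-stranded RNA Mda5, one of 0.28 ± 0.11 (limma adjusted p = 0.0474). The call for Ifih1 held in 5 of the 24 fits without 1 mouse. Ddx58, which codes for Rig-I itself, was at 7.22, 9.95 and 15.4 FPKM with ANG II and at 6.62, 8.10 and 9.81 FPKM in controls. The upper part of its ANG II values, 6 of 12, lay above every control, and its log2 fold change was 0.21 ± 0.09 (limma adjusted p = 0.0629).

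The Ifit family, which bind foreign RNA and are neighbours on chromosome 19 (34550694 to 34650009, GRCm38), had 3 of 4 genes among the DEGs. Ifit1, which binds RNA whose cap lacks the host's methyl mark, was at 2.36, 4.22 and 11.1 FPKM with ANG II and at 1.76, 2.91 and 3.58 FPKM in controls. All but 2 of the ANG II mice were above the highest control, and the log2 fold change was 0.63 ± 0.16 (limma adjusted p = 0.00356). Ifit3, which stabilises Ifit1, was at 7.51, 13.5 and 32.6 FPKM with ANG II and at 5.61, 9.19 and 12.2 FPKM in controls. In 7 of 12 ANG II mice it exceeded every control, with a log2 fold change of 0.62 ± 0.17 (limma adjusted p = 0.00888). Ifit3b, its near copy, was at 2.14, 3.91 and 8.99 FPKM with ANG II and at 1.70, 2.63 and 3.57 FPKM in controls. It too was above every control in most ANG II mice, 8 of 12, with a log2 fold change of 0.53 ± 0.15 (limma adjusted p = 0.00946). Of the 50-base words in the transcripts of Ifit3, 51.2% also occur in Ifit3b (the pair whose upstream stretches above are identical), so the split of reads between them is uncertain. Ifit2, which binds RNA rich in A and U, was at 4.76, 8.10 and 16.7 FPKM with ANG II and at 4.78, 6.97 and 7.61 FPKM in controls. ANG II 7 was the lowest of all 24 samples although 9 ANG II mice were above every control, and the log2 fold change was 0.32 ± 0.13 (limma adjusted p = 0.0583).

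**Figure D2:**
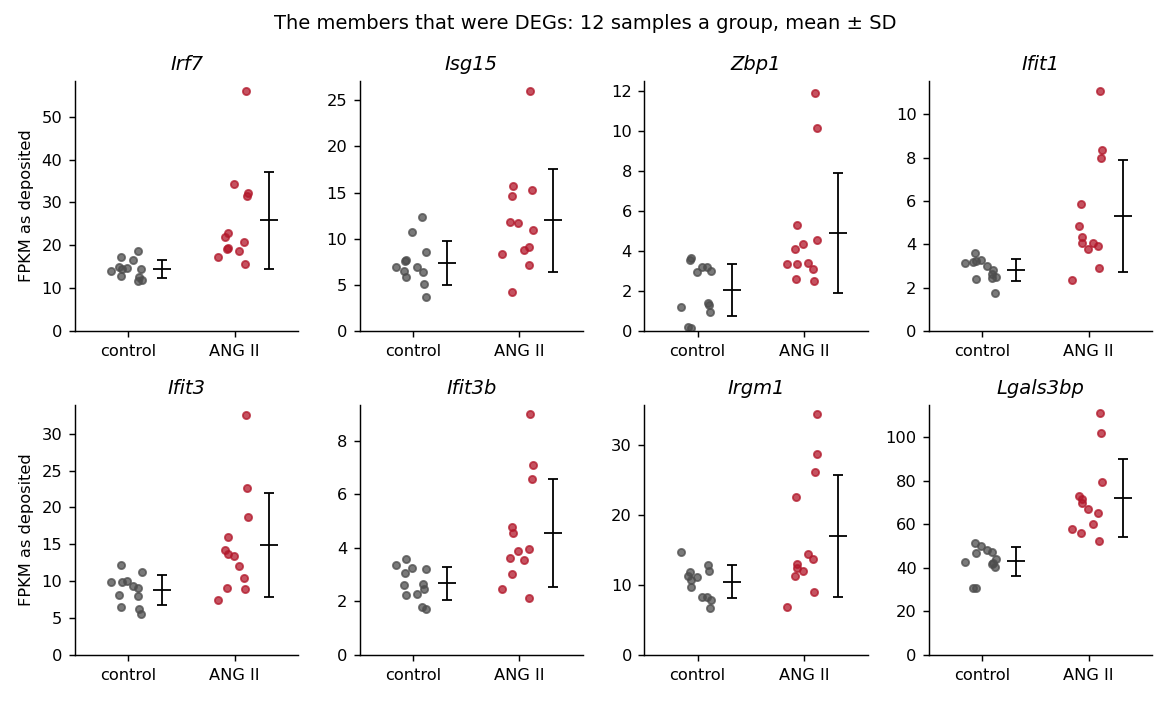
FPKM as deposited (y axis) in each of the 12 control and 12 ANG II samples for the 8 genes that were DEGs, with the mean ± SD as bars. For Lgals3bp the 12 ANG II samples all lie above the 12 control samples, and for the other 7 genes the groups overlap.

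In the Oas family and PKR, 1 of 5 genes rose. Oas3, which makes the 2-5A signal that switches on RNase L, was at 0.687, 0.944 and 3.09 FPKM with ANG II and at 0.317, 0.647 and 0.998 FPKM in controls. Its ANG II values were above the control median in 12 of 12 mice, but 4 stood above the highest control. The log2 fold change was 0.42 ± 0.12 (limma adjusted p = 0.00777), at the lowest mean level of the 39 genes. Oas1a, another 2-5A synthetase, was at 1.26, 4.65 and 12.4 FPKM with ANG II and at 2.00, 3.49 and 5.66 FPKM in controls. The lowest of its 24 values (ANG II 12) and the highest (ANG II 8) were both from the hypertensive-LVH group, and the log2 fold change was 0.32 ± 0.19 (limma adjusted p = 0.208). Oas1a shares 57.6% of its 50-base words with Oas1g, so its level is uncertain. The log2 fold changes of Oas2, Oasl2 and Eif2ak2, which codes for the kinase PKR, were 0.34, 0.43 and 0.16 and did not pass.

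Among the 5 other antiviral effectors with a row, Rsad2 rose. Rsad2 codes for viperin, which makes a chain-terminating nucleotide, and was at 6.46, 11.4 and 19.2 FPKM with ANG II and at 6.49, 9.14 and 11.0 FPKM in controls. In 7 of 12 ANG II mice it was above every control, while ANG II 7 was below them all. The log2 fold change was 0.34 ± 0.12 (limma adjusted p = 0.0366), and the adjusted p was 0.0687 without ANG II 8, with the threshold passed in 15 of the 24 fits without 1 mouse. Cmpk2, the nucleotide kinase that lies beside Rsad2 on chromosome 12, was at 3.70, 6.24 and 10.5 FPKM with ANG II and at 3.50, 5.79 and 6.16 FPKM in controls. Its medians lay close together, and its log2 fold change was 0.20 ± 0.12 (limma adjusted p = 0.209). Bst2, a tether of budding virus, Ifitm3, a block to viral entry, and Trim30a had log2 fold changes of 0.38, 0.35 and 0.24, with limma adjusted p of 0.0549, 0.0747 and 0.0811. Ifitm3 had the highest mean level of the 39 genes, 210 ± 67.8 FPKM (SD, n = 12) with ANG II and 161 ± 35.2 FPKM in controls.

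The 7 interferon-inducible GTPases, which act on the vacuoles of invading microbes and are known above all as targets of interferon gamma, gave 1 call. Irgm1, which governs the other immunity-related GTPases, was the one that rose. It was at 6.77, 13.4 and 34.3 FPKM with ANG II and at 6.70, 10.9 and 14.7 FPKM in controls. The 4 ANG II mice above every control (2, 6, 8 and 12) stood well apart from the other 8, and the log2 fold change was 0.54 ± 0.20 (limma adjusted p = 0.0386, and 0.0793 by permutation within the sets). Leaving out ANG II 6 gave an adjusted p of 0.0736. Igtp, another of these GTPases, was at 9.62, 19.2 and 80.9 FPKM with ANG II and at 6.70, 21.2 and 28.3 FPKM in controls. Its median was lower with ANG II and its mean higher, and the log2 fold change was 0.28 ± 0.28 (limma adjusted p = 0.461). Of its 50-base words 11.8% are shared with Irgm2. The log2 fold changes of Iigp1 and of the guanylate-binding proteins Gbp2, Gbp3, Gbp5 and Gbp7 were between 0.15 and 0.35 and did not pass.

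Of the 9 remaining genes, Lgals3bp and Xaf1 rose. Lgals3bp, a secreted glycoprotein that binds galectins, was the 1 gene of the 39 whose groups did not overlap, where 0.271% of all genes lay wholly above and 0.485% wholly below the controls. It was at 52.2, 68.5 and 111 FPKM with ANG II and at 30.6, 43.3 and 51.4 FPKM in controls. The log2 fold change was 0.72 ± 0.11 (limma adjusted p = 3.82e-05), and the difference was positive in each of the 4 sets, from 0.38 in samples 10 to 12 to 1.23 in samples 4 to 6. Xaf1, which opposes the apoptosis inhibitor Xiap, had a log2 fold change of 0.31 ± 0.12 (limma adjusted p = 0.046, and 0.0827 by permutation within the sets), and its call held in 7 of the 24 fits without 1 mouse. Sp100, a nuclear body protein, was at 18.8, 25.5 and 40.5 FPKM with ANG II and at 16.9, 23.7 and 28.0 FPKM in controls. Its groups overlapped, although 5 of 12 ANG II mice were above every control (log2 fold change 0.15 ± 0.12, limma adjusted p = 0.318). Ifi27l2a shows that a large difference could miss the threshold, with 65.9 ± 38.3 FPKM (SD, n = 12) with ANG II, 35.7 ± 19.8 FPKM in controls and a log2 fold change of 0.85 ± 0.34 (limma adjusted p = 0.0518). Ifi44, Ifi35, Rtp4, Parp9 and Parp14 had log2 fold changes of 0.13 to 0.35 and did not pass.

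Across the mice, the genes were highest in the same few ANG II samples. The mean log2(FPKM + 1) over the 39 genes was 3.10, 3.57 and 4.44 (lowest, median, highest) in the hypertensive-LVH group and 2.94, 3.24 and 3.51 in the control group. The highest of the 24 samples was an ANG II sample for 39 of 39 genes, and it was ANG II 8 for 31, ANG II 2 for 7 and ANG II 6 for 1, where these samples were highest for 6.87%, 1.24% and 19.6% of all genes. In ANG II 8, 39 of 39 genes were above the highest control, as were 37 in ANG II 6 and 33 in ANG II 2. At the other end, ANG II 9 and ANG II 7 had 1 gene each above the highest control and 30 and 26 genes below the control median. For the counts above the highest control and below the control median, the share over all genes is not given here. Nor is the share of all genes for which any ANG II sample was the highest of 24. These counts therefore cannot be read as particular to the 39 genes. The SD of the log2 level was larger in the hypertensive-LVH group for 37 of 39 genes, against 64.8% of all genes tested. Its median over the 39 genes was 0.45 with ANG II and 0.24 in controls, and over all genes 0.17 and 0.16.

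**Figure D3:**
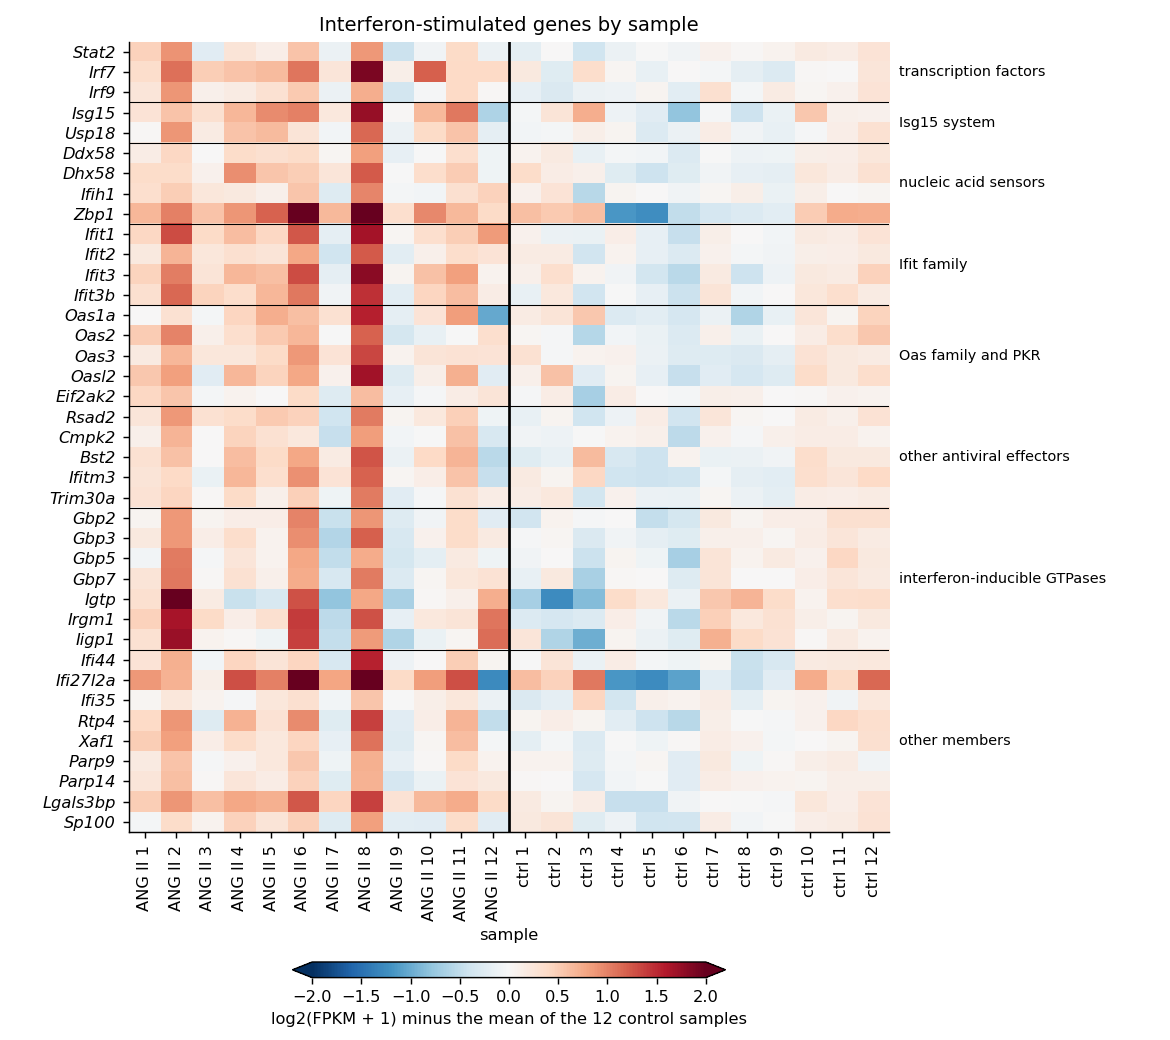
Each row is 1 of the 39 genes, each column 1 sample, and the colour is log2(FPKM + 1) minus the mean of the 12 controls, with differences beyond 2 drawn in the end colours. The columns of ANG II 2, 6 and 8 are red in nearly all rows, those of ANG II 7 and 9 are pale or blue, and the darkest cells of the GTPases are in ANG II 2.

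The order of these samples was not the same for all roles. ANG II 8 was the highest sample for 4 of 4 sensors, 4 of 4 Ifit genes, 5 of 5 genes of the Oas family and PKR, 5 of 5 other effectors and 9 of 9 genes without a class. Among the 7 GTPases it was highest for 1 (Gbp3) and ANG II 2 for 5. ANG II 2 was also the highest sample for Stat2 and Irf9. In ANG II 12, Irgm1 and Iigp1 were high while Oas1a, Bst2, Ifitm3 and Ifi27l2a were the lowest of all 24 samples.

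In samples 1 to 3, 4 to 6 and 7 to 9, a larger share of the 39 genes than of all genes was higher with ANG II. In samples 10 to 12 the share was near that of all genes, and the median difference was close to 0. The difference was positive for 39 of 39 genes in samples 4 to 6 (74.6% of all genes), for 36 in samples 1 to 3 (48.5%), for 31 in samples 7 to 9 (45.3%) and for 23 in samples 10 to 12 (55.8%). For 17 of the 39 it was positive in all 4 sets, against 21.8% of all genes. The median log2 difference over the 39 genes was 0.60, 0.39, 0.27 and 0.02 in that order, beside 0.18, -0.01, -0.02 and 0.03 over all genes. The 7 GTPases were positive in all of samples 1 to 3, with a median of 0.65, but 2 of 7 were positive in samples 7 to 9, with a median of -0.14, where the 5 genes of the Oas family and PKR had a median of 0.77. Igtp had a log2 difference of 1.81 in samples 1 to 3 and of -0.75 in samples 7 to 9. With 3 mice against 3, an exact test within 1 set cannot reach a p below 0.10, and none was run. These differences are not independent between sets, since the spacing of the values fits an adjustment that added 1 group difference per gene back to all sets.

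**Figure D4:**
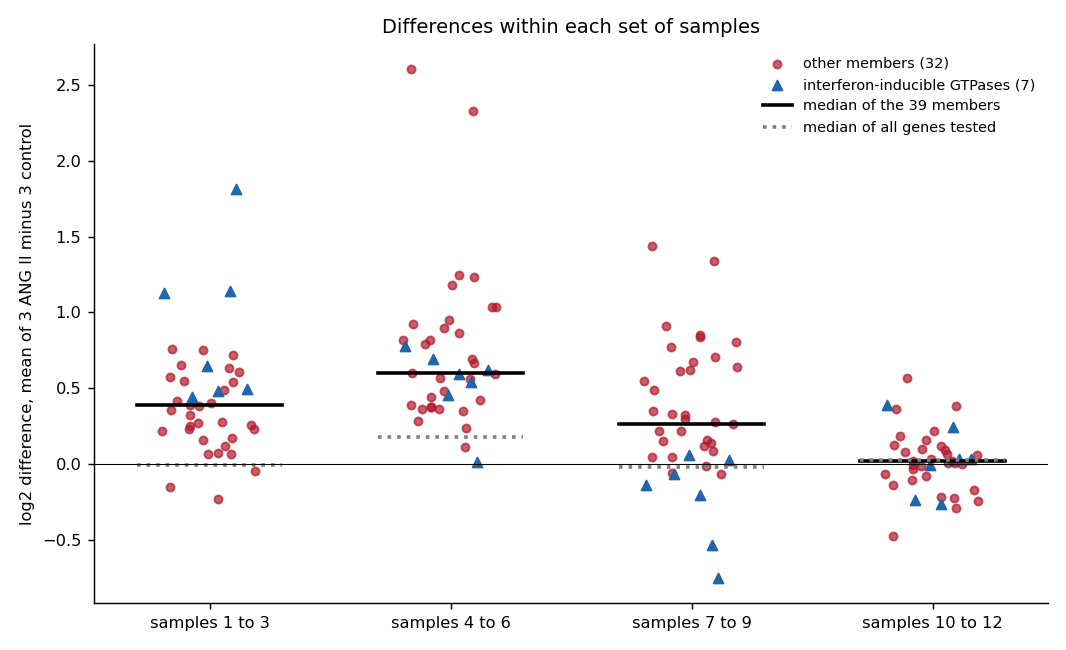
The log2 difference between the mean of the 3 ANG II and the 3 control samples of each set (y axis) for the 39 genes, with the 7 GTPases as triangles. The solid bar is the median of the 39 genes, from 0.02 to 0.60, and the dotted bar that of all genes tested.

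The FPKM differences before the adjustment could be recovered within the sets for 38 of the 39 genes, all but Ifih1, from the spacing of the values. For 26 of the 38 the difference was positive in all 4 sets, against 21.5% of all genes recovered. These 26 held all 13 of the recovered genes that rose. Irf7 was higher by 8.01, 11.4, 20.5 and 9.53 FPKM in samples 1 to 3, 4 to 6, 7 to 9 and 10 to 12. Ifit1 was higher by 2.84, 2.96, 2.66 and 1.52 FPKM, a narrower range between sets. Ifi27l2a was higher by 77.8 and 63.4 FPKM in samples 4 to 6 and 7 to 9 and lower in the other sets, where its differences were -8.10 and -4.54 FPKM. By exact permutation within the sets, 16 of the 38 (42.1%) were higher at an adjusted p under 0.05, against 17.7% of all genes recovered, and 0 were lower, against 10.2%. Of these, 12 had also risen by limma, and the other 4 were Ddx58, Ifit2, Eif2ak2 and Trim30a, with adjusted p of 0.0341, 0.0148, 0.0415 and 0.0295. Xaf1 did not pass in these values (adjusted p = 0.0742).

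Most macrophage markers were also higher with ANG II, but their sum did not follow the 39 genes in every sample. The marker counts stand beside 20.9% of all genes tested that were higher by limma and 12.6% that were lower. A count of 1 or 2 in these short lists cannot be set apart from those shares. Of 12 macrophage markers 11 were higher (C1qa, C1qb, Cd68, Lyz2 and others). The summed FPKM of the 12 was 361, 658 and 1095 (lowest, median, highest) with ANG II and 277, 404 and 624 in controls. ANG II 6 and ANG II 8 had the largest sums, 1095 and 1057 FPKM. The sum was 815 FPKM in ANG II 7, where the 39 genes were low, and 571 FPKM in ANG II 2, where they were high. Of 7 monocyte markers 2 were higher (Ccr2 and Plac8), as were 4 of 6 dendritic cell markers, 2 of 7 tested T cell markers and 1 of 4 tested NK cell markers, whose summed level reached at most 4.09 FPKM in a sample. No plasmacytoid dendritic cell marker passed by limma, with Klk1 at a median of 0 and Klk1 and Ccr9 below the filter. Of the other cells that can respond, 1 of 8 endothelial markers was higher and 1 lower, and 5 of 9 fibroblast markers were higher and none lower by limma. Of the smooth muscle and pericyte markers 2 of 8 were higher and 2 lower, of 6 tested neutrophil markers 1 was higher, of 4 tested B cell markers 1 was lower, and of 3 tested atrial markers none passed by limma. The 5 red blood cell genes were all higher, and 7 of 10 cardiomyocyte markers were lower. The part of these cells in the differences was not tested.

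**Figure D5:**
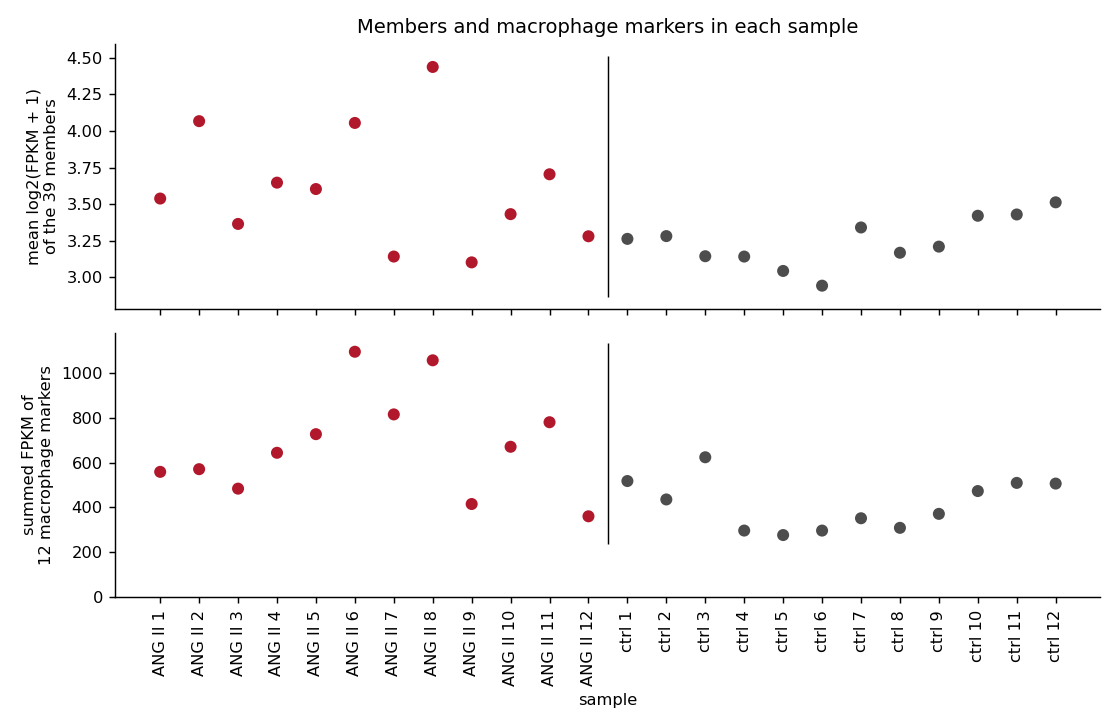
The mean log2(FPKM + 1) of the 39 genes (upper panel) and the summed FPKM of 12 macrophage markers (lower panel) in each of the 24 samples, ANG II in red and control in grey. ANG II 8 is highest in the upper panel (4.44) and ANG II 6 in the lower (1095), while ANG II 7 is low in the upper and high in the lower.

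The other genes of the pathway were read from the same fit, with lists of 116 genes, of which 96 were tested. Of these 41 rose (42.7%, against 20.9% of all genes) and 4 fell (4.17%, against 12.6%). The 14 interferon ligand genes on the lists were not analysed here. Of the 6 receptor genes, 1 rose and 3 fell. Ifngr1, the chain that binds interferon gamma, was at 46.6 ± 6.47 FPKM (SD, n = 12) with ANG II and 37.8 ± 4.91 FPKM in controls (limma adjusted p = 0.00471). Its partner chain Ifngr2 went the other way, at 95.4 ± 17.3 and 123 ± 15.7 FPKM (limma adjusted p = 0.00191). Both chains of the type III receptor, Ifnlr1 and Il10rb, fell by 0.28 and 0.21 on the log2 scale (limma adjusted p = 0.00614 and 0.0059). For the type I receptor, Ifnar1 and Ifnar2 had log2 fold changes of 0.09 and 0.15 and did not pass.

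Downstream of the receptors, the kinase Jak2 rose, with a log2 fold change of 0.30 ± 0.10 (limma adjusted p = 0.0196), while Jak1 and Tyk2 did not pass. Of 7 other interferon regulatory factors, 2 rose, and both are at home in myeloid cells. Irf8, needed for monocytes and dendritic cells to form, was at 7.76 ± 2.38 FPKM (SD, n = 12) with ANG II and 4.22 ± 1.11 FPKM in controls (limma adjusted p = 0.000413), and Irf5 had a log2 fold change of 0.50 ± 0.14 (limma adjusted p = 0.00927). Irf1, an early target of interferon gamma, had a log2 fold change of -0.19 ± 0.12 and did not pass (limma adjusted p = 0.218). Among 9 genes that restrain the response, Ptpn2, a phosphatase that acts on Jak1, Irf2bp2 and Pias1 rose, with log2 fold changes of 0.41, 0.37 and 0.20. Socs1, the best known feedback inhibitor of interferon signaling, did not pass.

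Of 13 genes of nucleic acid sensing upstream of interferon, 10 rose and 1 fell. The smallest adjusted p among those that rose were those of Ikbke, a kinase that activates Irf3 and Irf7 (log2 fold change 0.55 ± 0.13, limma adjusted p = 0.00192), of Ticam1, the adaptor of Tlr3 (0.22 ± 0.05, limma adjusted p = 0.00301), and of Tlr9, a receptor for DNA (0.42 ± 0.11, limma adjusted p = 0.00492). Mavs, the adaptor that Rig-I and Mda5 share on mitochondria, fell by 0.22 on the log2 scale (limma adjusted p = 0.00841). Of 58 further interferon-stimulated genes, 23 rose and 0 fell by limma. Cxcl10, a chemokine that draws T cells, was at 3.04 ± 1.87 FPKM (SD, n = 12) with ANG II and 0.955 ± 0.659 FPKM in controls (limma adjusted p = 0.000639). Ifi30, a thiol reductase of antigen-presenting cells, had a log2 fold change of 1.51 ± 0.33 (limma adjusted p = 0.00124), and Ube2l6, the enzyme that passes Isg15 on to its targets, one of 0.55 ± 0.13 (limma adjusted p = 0.00208).

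Last, the promoter windows, which run to 50 bases after the start, were set beside the calls. Of the 11 genes that rose and had a promoter entry, 8 held the core of the response element. One of these, Ifih1, held it only after the start, at 32 bases. Of the 19 that did not pass and had an entry, 12 held the core. The 3 that rose without a match in this window were Irf7, Xaf1 and Lgals3bp. TTCNNNGAA was found for 0 of the 11 and for 9 of the 19, a difference chosen after the values were seen and not tested.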

How the data were processed

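Left ventricular RNA selected with oligo(dT) was sequenced by the authors, and 1 FPKM table of 14912 genes was used, with 12 ANG II and 12 control samples. The paper used more mice, and those not in the table were not analysed here. The submitters' processing notes name HISAT, Bowtie2 and RSEM; their roles and the genome build are not given in the sources used here. The deposited values were treated as a score derived from FPKM, because 2741 of them (0.766%) are below 0 (0 among the genes described). Their spacing also shows a shift and scaling of most genes within 4 sets of samples, a step the methods do not name. Groups came from the sample titles. Whether the mice of a group were housed or processed apart is not given, so p-values measure the spread between these samples only. Apart from those on the recovered differences, they were computed on values after the shift and scaling. That step seems to have kept 1 group difference per gene, so these p-values may be too small.

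Values below 0 were set to 0. The 14026 genes that reached a mean of 0.1 were fitted on log2(FPKM + 1) with limma 3.58.1 (R 4.3.3, intensity trend, Benjamini-Hochberg over all genes tested, two-sided). The fit and the permutation were tested on simulated data. FPKM differences before the adjustment were recovered where the values of each set lie on steps of 0.01 FPKM under 1 scale, for 13394 genes (95.5%). The exact permutation within sets used all 160000 relabelings, whose smallest p is 1.25e-05. Positions are from GENCODE vM21 and promoters from RefSeq, both GRCm38. All other steps ran in Python 3.11.15 (scipy 1.17.1, numpy 2.4.6, pandas 2.3.3).

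The genes, role classes, pathway lists and marker lists were chosen with earlier results of these data known. Sample values are given for each DEG and for the genes with the smallest and the largest adjusted p of each class, and the rest by ranges. Of the pathway lists with 10 or more genes, the 3 with the smallest adjusted p in each direction were named. One item of the lists is not reported here. The alternatives were other pseudocounts, filters, scalings and tests, a block or set term, and leaving out mice or sets. The removal of 3 libraries was chosen after seeing the data.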

Additional observations from a re-analysis of the deposited data

How the results depend on the processing

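The number of the 39 genes that rose was 14, and it moved by over 1.5 times to 9 with quantile normalization, to 9 by exact permutation within the sets, to 9 without samples 1 to 3, to 3 without samples 4 to 6 and to between 9 and 23 when 1 mouse was left out. It was between 10 and 18 under the other settings, apart from the block given below, and the number that fell was 0 under all settings run. The number of DEGs that were higher was 8, and moved to 5 with quantile normalization, to 3 without samples 4 to 6 and to 14 without samples 10 to 12. It was between 5 and 9 when 1 mouse was left out, with 5 without ANG II 8 and 5 without control 6. The median log2 fold change was 0.32 and ranged from 0.24 to 0.37 without 1 mouse. The groups did not overlap for 1 gene, and for 2 without samples 7 to 9. Of the 96 other pathway genes, 41 rose (29 to 49 without 1 mouse) and 4 fell (2 without samples 7 to 9). Without samples 4 to 6, 13 of them rose, where 8.36% of all genes did. For the DEG, non-overlap and falling counts, the share over all genes under each changed setting is not given here. Their moves therefore cannot be read as particular to these genes. The direction of 2 genes turned, Igtp to -0.23 without samples 1 to 3 and Sp100 to -0.027 without samples 4 to 6. The core of the response element was found for 20 genes, for 17 with a C after it, and for 9 on the strand of the gene. The cause of these changes was not tested.

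The replicate numbers did not pair the mice, since the correlation of same-numbered deviations lay between -0.557 and -0.001 over 12 pairs and 0 of the 12 ANG II samples were closest to their own number. With the replicate number as a block, 8 of the 39 genes and 21 of the 96 pathway genes rose, against 11.3% of all genes. The calls of Isg15, Usp18, Ifih1, Rsad2, Irgm1 and Xaf1 were lost. Depth is unknown, so no counting error can be given for genes of low FPKM such as Oas3.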
